A study of Mus musculus with 6 samples.

Results

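Immediate-early stress tumor nuclei are described here, the tumor nuclei of each library in which 8 genes of the immediate-early and stress response took the highest share of the counted RNA. They were chosen from single-nucleus RNA sequencing (snRNA-seq) of 6 subcutaneous TC1 tumors. The 8 genes were Atf3, Ppp1r15a, Ier2, Dusp1, Egr1, Jun, Gadd45b and Dnajb1. A nucleus was kept with 100 to 7500 detected genes, under 20% mitochondrial counts and at least 1500 unique molecular identifiers (UMIs, the counted RNA molecules). It counted as a tumor nucleus when Hmga2, Mecom and Slit2 together held at least 0.5% of its UMIs and the macrophage genes Adgre1, Cadm1, Csf1r, Cd84 and Mrc1 together held under 3 UMIs. Members were, in each library, the top 5% of tumor nuclei by the share of UMIs in the 8 genes, with at least 3 such UMIs. This gave 389 members among 8149 tumor nuclei and 18865 barcodes in all. The remaining 7760 tumor nuclei are called other tumor nuclei.

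TC1 is a purchased mouse lung tumor line that was injected under the skin of the flank, although the labels name lung as the tissue. All host mice carried MCT2 loxP/loxP alleles (MCT2 is the pyruvate and lactate transporter encoded by Slc16a7) and an mCre transgene on a C57BL/6 background. At 8 weeks of age the MCT2 knockout (KO) mice received tamoxifen for 5 days and the control (CO) mice received vehicle. TC1 cells were injected 2 days later and tumors grew for 24 days, with 3 libraries in each group. The study describes the inducible deletion as systemic, and the floxed alleles belong to the host, not to the implanted TC1 cells. Over all kept nuclei, Slc16a7 was counted 132, 168 and 175 times in CO replicates 1 to 3, and 292, 113 and 363 times in KO replicates 1 to 3. Scaled to the library total (CPM, UMIs per 1e+06), the CO libraries had 8.57, 11.8 and 22.0 and the KO libraries 16.4, 7.25 and 31.5, so the 2 groups overlapped and the targeted gene was not lower in the libraries labelled KO. Members held 1 UMI of Slc16a7 in all, in KO replicate 2.

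Immediate-early genes are switched on within minutes of a stimulus from factors already present in the cell, and their RNAs are short-lived. Many encode transcription factors, such as the AP-1 subunits of the Fos and Jun families and the zinc-finger Egr proteins, while others, such as the dual-specificity phosphatases and Zfp36, shut the response down again. The integrated stress response overlaps with it at Atf3: when translation initiation is slowed, the factor ATF4 drives Atf3, Ddit3, Trib3 and Chac1, and Ppp1r15a encodes the phosphatase subunit that restores translation. In tissue these genes respond to growth factors, hypoxia, heat and wounding, and also to handling of the sample.

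The members numbered 82, 69 and 33 in CO replicates 1 to 3 and 118, 53 and 34 in KO replicates 1 to 3. In all, 404 tumor nuclei stood in the top 5%, and 15 of them fell out because they held under 3 marker UMIs, 11 of these in KO replicate 2. The lowest marker share among members was 0.161%, 0.174% and 0.110% of UMIs for CO replicates 1 to 3, and 0.161%, 0.0766% and 0.109% for KO replicates 1 to 3. The highest share among nuclei with 3 or more marker UMIs that stayed outside reached 0.161%, 0.173% and 0.107% for CO, and 0.160%, 0.0760% and 0.1004% for KO. The border therefore lay within a continuous range, and membership marks the upper end of a range rather than a separate kind of nucleus. Exactly 3 marker UMIs were counted in 23 members. A share above 0.2% was reached by 187 members, above 0.5% by 23 members and above 1% by 7 members.

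**Figure D1:**
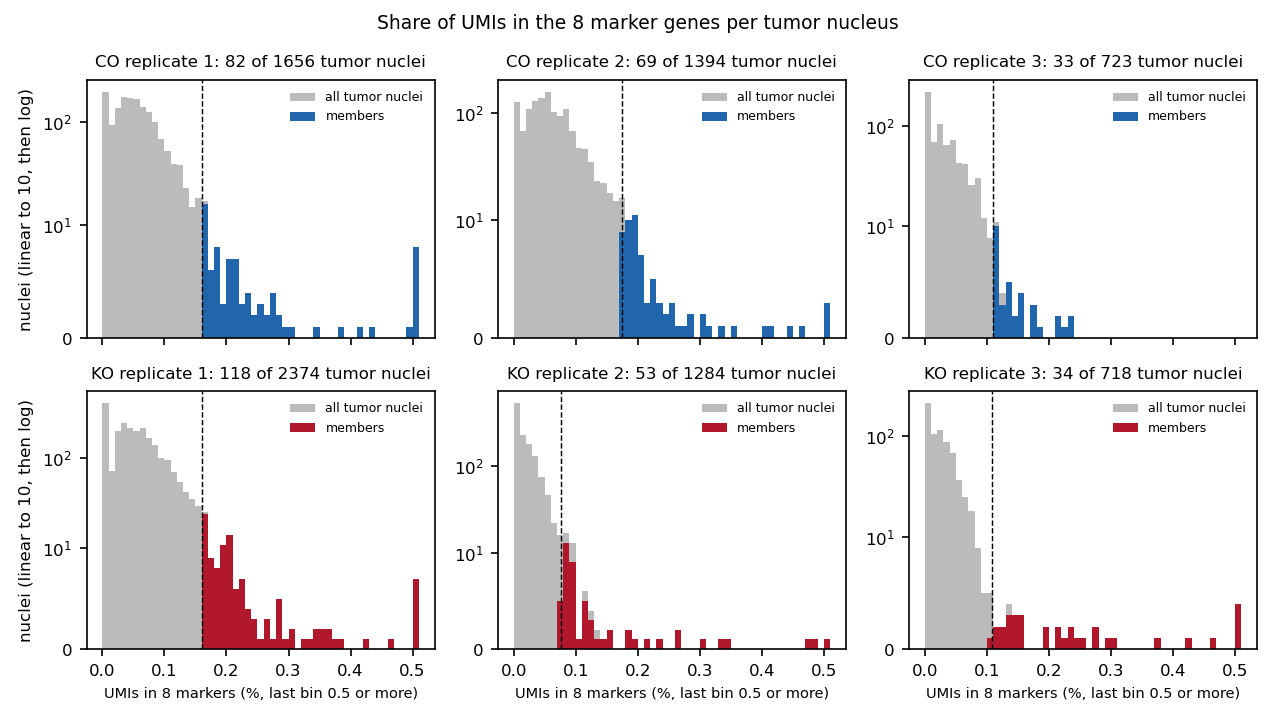
Number of tumor nuclei (y axis, linear to 10 and logarithmic above) by the percentage of their UMIs in the 8 marker genes (x axis, bins of 0.01, the last bin open), one panel per library. Grey bars are all tumor nuclei, colored bars the members and the dashed line the lowest share of a member; in every library the bars run on from the other nuclei into the members without a gap at the line.

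The libraries differed in ways that cut across the groups. CO replicates 1 and 2 and KO replicate 1 had median mitochondrial shares of 9.86%, 8.71% and 9.19% in other tumor nuclei, against 5.06%, 5.34% and 4.76% in CO replicate 3 and KO replicates 2 and 3. The same 3 libraries had the highest level of the 8 markers in all tumor nuclei (691, 739.8 and 680.0 CPM, against 411, 249.1 and 351 CPM in the other three). Between 19 and 25 cell barcodes were shared by any 2 libraries, 16 of them by all 6, and no member carried a shared barcode. Members held between 269133 and 614036 UMIs per library in sum. Defining markers of the lung epithelium were absent: of 10 epithelial genes 8, among them Epcam, Krt8, Nkx2-1 and Sftpc, were at 0 in all members, and the list held 2 UMIs. The 12 mesenchymal genes held 4358 to 5514 CPM in members and 4348 to 4858 CPM in other tumor nuclei, but also 5896 to 7368 CPM in macrophage-marker nuclei (defined below), so that list does not set tumor nuclei apart. The median share of UMIs in the tumor genes of the rule was lower in members in every library. Members had 0.818%, 0.988% and 1.32% in CO and 0.990%, 1.78% and 1.32% in KO. Other tumor nuclei had 1.08%, 1.13% and 1.61% in CO and 1.10%, 2.09% and 1.88% in KO. Members thus lay nearer the 0.5% limit for tumor nuclei.

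The 8 markers set the membership, so their levels are given as a description with no test. Jun, an AP-1 subunit with a single exon (chr4:95049034-95052222, GRCm38), held 47.9% of all marker UMIs of members. It was at 1705, 1458 and 482 CPM in the members of CO replicates 1 to 3 and at 1589, 763 and 884 CPM in those of KO replicates 1 to 3. Other tumor nuclei had 340.0, 314 and 152 CPM in CO and 340.1, 62.6 and 96.0 CPM in KO. Members of CO replicates 1 and 2 and KO replicate 1 were thus the high libraries for Jun, as were the other tumor nuclei of the same libraries.

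Egr1, a zinc-finger transcription factor (chr18:34859823-34864984), held 23.0% of the marker UMIs of members. It was at 448, 610.4 and 575 CPM in the members of the CO libraries and at 498, 792 and 862 CPM in those of the KO libraries, so KO replicates 2 and 3 were highest. In other tumor nuclei it ranged from 71.0 to 134 CPM.

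Ier2, an immediate-early nuclear protein (chr8:84661331-84662852), held 16.3% of the marker UMIs and was at 487, 638 and 262 CPM in CO members and at 506, 159.6 and 401 CPM in KO members. In other tumor nuclei it ranged from 22.6 to 114 CPM. The remaining 5 markers were scarcer. Atf3, a stress-induced repressor and activator of the ATF family (chr1:191170296-191218039), had between 7 and 81 UMIs per library in members. Its level there was 114, 162 and 24.1 CPM in CO and 96.0, 43.5 and 63.2 CPM in KO, and it did not exceed 7.15 CPM in the other tumor nuclei of any library.

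Ppp1r15a (chr7:45522916-45526268) was at 27.5 to 68.1 CPM in members and at 5.66 to 12.5 CPM in other tumor nuclei. Dusp1, a phosphatase that inactivates MAP kinases (chr17:26505590-26562128), was at 26.9 to 130.0 CPM in members and at 6.78 to 12.7 CPM in others, with its highest member level in KO replicate 3. Gadd45b, a growth-arrest and stress adaptor (chr10:80930073-80932204), was at 24.9 to 111 CPM in members and at 5.29 to 26.0 CPM in others. Dnajb1, an HSP40 co-chaperone (chr8:83608193-83612653), was at 12.4 to 89.6 CPM in members and at 5.51 to 22.7 CPM in others.

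**Figure D2:**
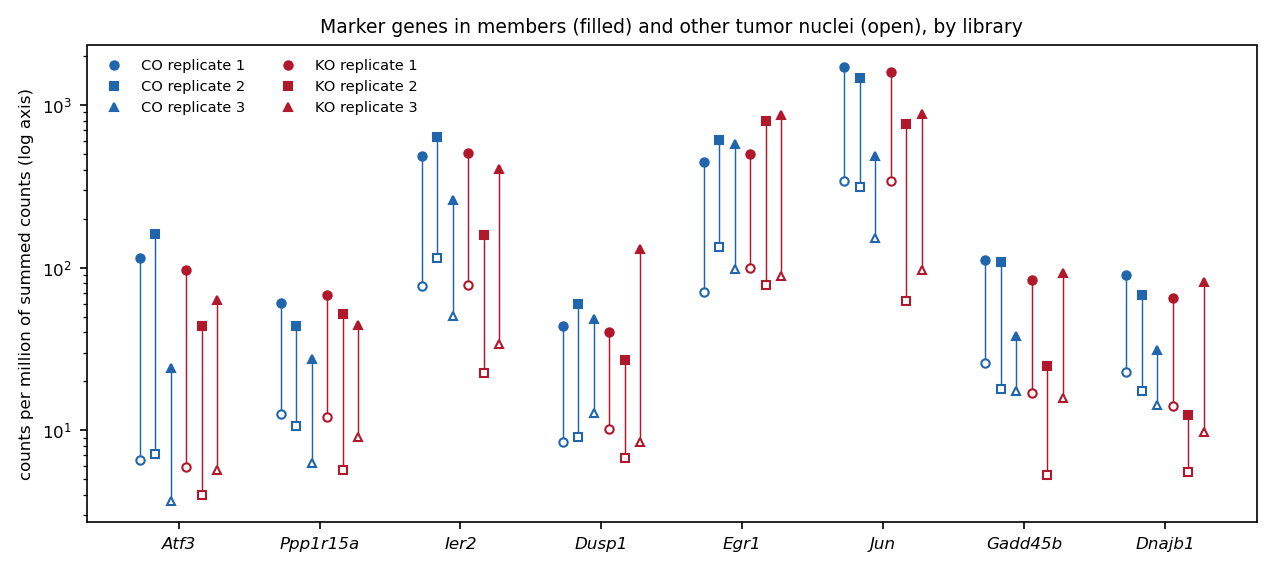
Levels of the 8 marker genes (x axis) in CPM of summed counts (y axis, logarithmic), with filled symbols for members and open symbols for other tumor nuclei of the same library, blue for CO and red for KO. Every filled symbol lies above its open partner, in members chosen by the sum of the 8 markers. The lines are longest for Atf3 in the CO libraries and KO replicate 1, for Jun in KO replicate 2 and for Dusp1 in KO replicate 3.

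Each marker was also measured in members chosen by the other 7, so that its own counts did not enter the choice. With this choice Atf3 was 2.35-fold to 20.9-fold higher than in the remaining tumor nuclei (median over the 6 libraries 11.4-fold). The corresponding medians were 4.81-fold for Ier2, 4.54-fold for Ppp1r15a, 4.42-fold for Egr1, 4.17-fold for Dusp1, 3.55-fold for Gadd45b, 3.44-fold for Jun and 2.89-fold for Dnajb1. The lowest fold of any marker in any library was 1.37, for Dnajb1. Leaving Jun out of the score kept 228 of the 389 members, the fewest of the 8, and leaving Ppp1r15a out kept 379, the most.

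Members differed among themselves in the leading marker. Jun was the marker with the most UMIs in 237 members (60.9%), Egr1 in 81 (20.8%) and Ier2 in 24 (6.17%), while 41 members had a tie. In CO replicate 1, Jun led in 68 of 82 members and Egr1 in 2. In KO replicate 2, Egr1 led in 34 of 53 members and Jun in 12. At least 5 of the 8 markers were detected in 87 members (22.4%), all 8 in 7 members, and a single marker in 18 members (4.63%). Within KO replicate 2, Egr1-led members had 163.5 CPM of Jun, 170.1 CPM of Junb and 3.27 CPM of Fosb, and Jun-led members had 2448 CPM of Jun, 512 CPM of Junb and 119 CPM of Fosb. In KO replicate 3 the Egr1-led members had 129 CPM of Fosb and the Jun-led members 83.2 CPM, so the order in KO replicate 2 did not hold there.

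At least 1 UMI of Atf3 was found in 14.4% to 29.4% of members, in 2.61% to 4.91% of other tumor nuclei and in 1.22% to 4.84% of macrophage-marker nuclei, that is, nuclei with 3 or more UMIs of the macrophage genes of the rule and tumor genes under 0.5%. After every nucleus was thinned to 1500 UMIs, these shares were 5.66% to 8.82%, 0.146% to 0.953% and 0% to 3.77%. Median depth per library was 3994.5 to 6867 UMIs in members, 4309 to 7997 UMIs in other tumor nuclei and 1842 to 2443.5 UMIs in macrophage-marker nuclei. The 8 markers together reached 156 to 384 CPM in macrophage-marker nuclei, within the range of other tumor nuclei (191 to 625 CPM) except for the lowest library, and below the 1487 to 3148 CPM of members. Of the single markers, Atf3 in CO replicate 3 (63.0 CPM in macrophage-marker nuclei and 24.1 CPM in members) and Dnajb1 in KO replicate 2 (13.4 and 12.4 CPM) were not higher in members. The Atf3 value rested on 25 UMIs in 1.88% of macrophage-marker nuclei, whereas 15.2% of the members of that library held Atf3. The Dnajb1 values rested on 3 UMIs in macrophage-marker nuclei and 6 UMIs in members.

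Promoters of 6 of the 8 markers were found in RefSeq (GRCm38.p6), and the 250 bases before the start were searched on both strands. The cAMP response element (CRE, TGACGTCA), a site of CREB and ATF factors, was found in Ppp1r15a and Dusp1. It is shown in capitals in these 2 sequences, written 5′ to 3′ along the gene, because they are the markers that hold the whole element.

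Ppp1r15a, chr7:45526269-45526518, minus strand: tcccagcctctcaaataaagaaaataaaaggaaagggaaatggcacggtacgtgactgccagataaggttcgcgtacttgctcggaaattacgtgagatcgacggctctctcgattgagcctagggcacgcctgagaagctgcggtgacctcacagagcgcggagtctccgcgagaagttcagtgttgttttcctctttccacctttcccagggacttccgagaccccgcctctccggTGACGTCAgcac

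Dusp1, chr17:26508473-26508722, minus strand: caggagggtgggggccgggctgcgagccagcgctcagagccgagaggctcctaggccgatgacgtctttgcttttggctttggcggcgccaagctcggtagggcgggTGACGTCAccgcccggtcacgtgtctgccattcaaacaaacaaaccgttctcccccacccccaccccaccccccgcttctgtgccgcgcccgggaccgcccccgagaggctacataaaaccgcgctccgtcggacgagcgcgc

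The element began 12 bases before the RefSeq start of Ppp1r15a and 143 bases before that of Dusp1. The gene positions given above come from GENCODE, in which the spans of Dusp1 and Atf3 extend upstream of the RefSeq starts used here. The C/EBP-ATF composite element (TGATGNAA), at which ATF4 binds with a C/EBP partner, was found in Atf3 and, outside the markers, in Chac1. These 2 promoters are shown with the element in capitals, on the strand opposite to the spelling above, since both genes belong to the ATF4 branch described below.

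Atf3, chr1:191183334-191183583, minus strand: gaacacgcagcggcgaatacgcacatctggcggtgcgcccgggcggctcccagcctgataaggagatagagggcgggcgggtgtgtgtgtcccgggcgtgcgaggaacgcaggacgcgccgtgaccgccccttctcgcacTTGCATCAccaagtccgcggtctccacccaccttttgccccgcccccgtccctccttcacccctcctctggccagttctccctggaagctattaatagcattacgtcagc

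Chac1, chr2:119350992-119351241, plus strand: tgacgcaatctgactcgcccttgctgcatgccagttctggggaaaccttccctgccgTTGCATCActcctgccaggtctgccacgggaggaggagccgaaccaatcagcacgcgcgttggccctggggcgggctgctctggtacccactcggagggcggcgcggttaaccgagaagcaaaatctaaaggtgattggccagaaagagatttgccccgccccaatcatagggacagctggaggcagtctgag

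The next question was which other genes differed between members and other tumor nuclei. Counts were summed per library and class and compared with library as a block. The 16 genes of the rule were not tested. Of 11257 genes, 552 were called changed (4.9%) at a log2 fold change of at least 0.58 in size and an edgeR adjusted p of at most 0.05. Of these, 404 were higher (3.59%) and 148 lower (1.31%) in members, and the median log2 fold change of all tested genes was -0.02. Of the genes called higher, 270 were higher in all 6 libraries, and of those called lower, 107 were lower in all 6. Called or not, 7.94% of tested genes were higher and 9.45% lower in all 6 libraries. The variation that remained after the library block (biological coefficient of variation) was 8.9%, which leaves out differences between whole libraries. The markers that chose the members led a cluster of these same nuclei in an earlier analysis, so these tests show how regularly a gene moved with the markers over libraries and are not independent evidence of a state.

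Fos, the dimerization partner of Jun (chr12:85473890-85477273), was the most raised gene by the rule for named genes. It was at 61.2, 49.1 and 40.1 CPM in members of the CO libraries and at 73.8, 19.8 and 105 CPM in those of the KO libraries. Other tumor nuclei had 5.93, 17.0 and 9.32 CPM in CO and 9.50, 2.69 and 3.59 CPM in KO. Each member value lay above every value of other tumor nuclei, giving a log2 fold change of 2.89 ± 0.27 (SE) with an adjusted p by edgeR of 5.58e-09. Fosb, a second Fos-family gene, rose from 4.02 to 6.32 CPM in other tumor nuclei to 13.4 to 87.3 CPM in members, a log2 difference of 2.74 ± 0.25 (SE, adjusted p by edgeR 5.53e-09). Junb, a Jun-family subunit with 1448 UMIs in members, was at 768, 699 and 334 CPM in CO members and at 420.3, 277 and 503 CPM in KO members. In other tumor nuclei it did not exceed 185 CPM, giving a log2 fold change of 2.07 ± 0.10 (SE, adjusted p by edgeR 3.05e-15).

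Of 40 immediate-early transcription factors and related early genes, 37 were tested, 26 rose and none fell, beside 3.59% of all genes called higher. With at least 500 genes and under 5% mitochondrial counts 13 rose, and without the library block 14. Their median log2 fold change was 1.03. Besides the Fos and Jun genes, the zinc-finger genes Egr2 (log2 fold change 2.38) and Egr4 (2.81) rose, Egr4 in 5 of 6 libraries. The mRNA-decay factor Zfp36 rose by 2.27, the matricellular Ccn1 by 2.11, and the proto-oncogene Myc by 1.75, all on the log2 scale. Klf6, a Kruppel-like factor, was among the steadiest, at 93.5 to 139.8 CPM in members and 42.3 to 49.8 CPM in other tumor nuclei (log2 fold change 1.3 ± 0.11, SE, adjusted p by edgeR 1.36e-09).

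Feedback inhibitors of the MAP kinase pathway rose in part, with 7 of 19 tested genes called higher and none lower, beside 3.59% of all genes called higher. The count was 4 with tumor genes at 1% or more and 1 without the library block. The phosphatase Dusp8 had the largest log2 fold change (2.23), followed by Dusp5 (1.3) and Dusp2 (1.19), the latter higher in 4 of 6 libraries. The ERK phosphatase Dusp6 was at 64.4 to 196 CPM in members and 48.6 to 74.4 CPM in others (0.74, edgeR adjusted p 0.000313), and the receptor-signaling inhibitor Spry2 had a log2 fold change of 0.72 (edgeR adjusted p 0.00415). The median of the 19 genes was 0.49.

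Genes of the integrated stress response formed the second large group, beside 3.59% of all genes called higher. Of 34 tested genes 18 were higher and none lower, with a median log2 fold change of 0.60. This count depended on the choice of nuclei, with 10 genes higher for the top 10% of tumor nuclei, 9 after thinning, 7 with tumor genes at 1% or more and 6 with at least 500 genes and under 5% mitochondrial counts, and with 1 higher when the library block was left out. Ddit3, which encodes the pro-apoptotic factor CHOP, was at 87.0, 74.6 and 30.1 CPM in CO members and at 48.0, 39.6 and 55.9 CPM in KO members. Other tumor nuclei had 17.4 to 27.9 CPM, below every member value, giving a log2 fold change of 1.36 ± 0.16 (SE, adjusted p by edgeR 4.05e-07). Chac1, a glutathione-degrading enzyme whose promoter is shown above, rose by 2.49 on the log2 scale but had 39 UMIs in members and none in those of KO replicate 2. The amino acid transporter Slc7a5 (1.32), the pseudokinase Trib3 (1.23), asparagine synthetase Asns (1.10) and Atf4 itself (0.99) also rose. The cytokine gene Gdf15 was below the filter on low counts, with 14 UMIs in members and 113 in other tumor nuclei.

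The unfolded protein response and the heat-shock chaperones moved less, and 3.59% of all tested genes were called higher for comparison. Of 24 unfolded protein response genes 2 rose, Herpud1 (1.13) and Dnajb9 (0.75), both linked to protein degradation at the endoplasmic reticulum, and the count was 1 without CO replicate 2. The chaperone Hspa5, its usual readout, differed by 0.48 ± 0.09 on the log2 scale (SE, adjusted p by edgeR 0.000594), under the fold threshold but higher in 6 of 6 libraries. Of 28 heat-shock genes 5 rose, among them the chaperones Hspb8 (0.82), Hsp90aa1 (0.70) and Hspa9 (0.61) and the polyubiquitin gene Ubb (0.63). Leaving out KO replicate 3 reduced the count to 2, and leaving out KO replicate 2 to 3. Without the library block the count was 0. The inducible HSP70 genes were too scarce to test, with 1 UMI of Hspa1a and 13 UMIs of Hspa1b in members and 18 and 192 UMIs in other tumor nuclei.

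Among p53 targets and Gadd45 genes 8 of 28 rose, beside 3.59% of all genes, led by Gadd45g (1.49), the kinase Plk2 (1.14) and the receptor Epha2 (1.10). The count was 3 with tumor genes at 1% or more and 2 without the library block. Cdkn1a, the p21 cell cycle inhibitor, was at 266 to 713 CPM in members and 190.1 to 433 CPM in others (0.64, SE 0.08, edgeR adjusted p 1.36e-06), and Gadd45a rose by 1.09. Mdm2, the ubiquitin ligase of p53, had a log2 fold change of 0.42 (edgeR adjusted p 0.00284) and did not reach the fold threshold. Of 25 NF-kappaB targets 7 rose, among them the inhibitors Nfkbia (1.38) and Tnfaip3 (1.58) and the chemokine Cxcl10 (1.41). This count was 4 with tumor genes at 1% or more and 0 without the library block. Cxcl10 was at 128 to 1064 CPM in members and 83.7 to 345 CPM in other tumor nuclei, and higher in 6 of 6 libraries. Of 23 NRF2 and metal genes 4 rose, Srxn1 (1.28), Hmox1 (0.95), Sqstm1 (0.75) and Ftl1 (0.65), and 1 without the library block. Of 27 hypoxia genes Ndrg1 alone rose (0.69), and Vegfa differed by 0.24 ± 0.14 on the log2 scale (SE, adjusted p by edgeR 0.286).

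**Figure D3:**
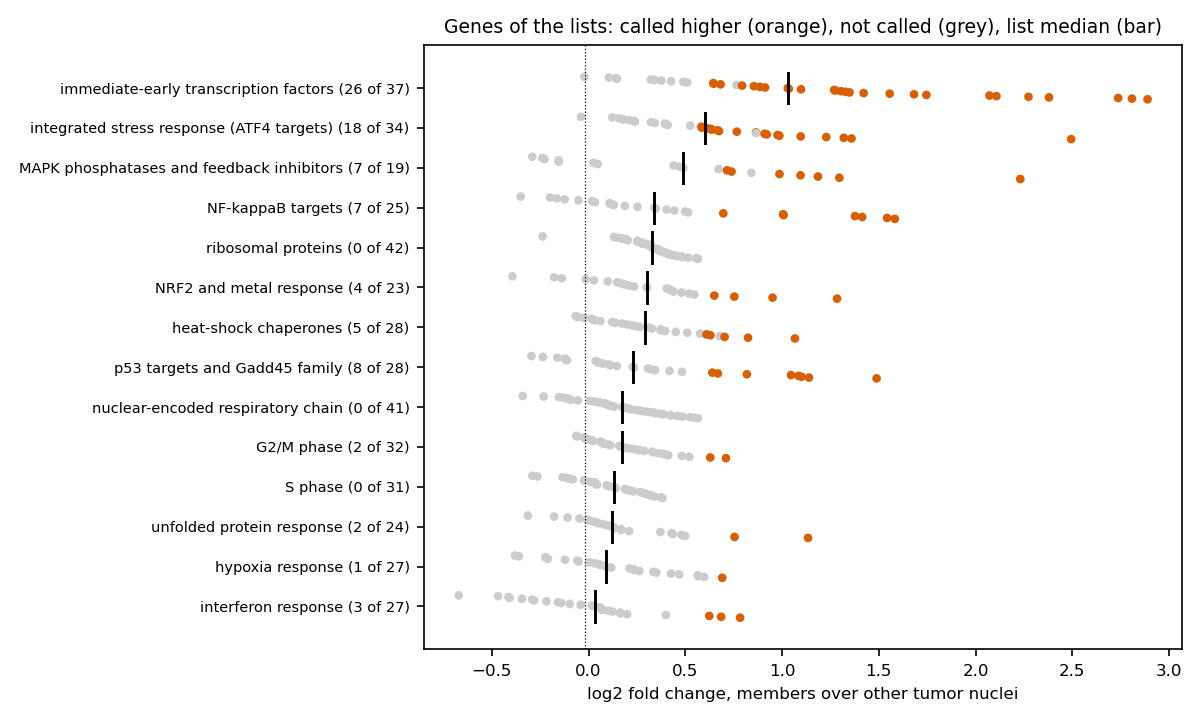
Log2 fold change of members over other tumor nuclei (x axis) for every tested gene of 14 lists (y axis, called higher of tested in brackets), with genes called higher in orange, genes not called in grey, a bar at the median of each list and a dotted line at the median of all tested genes. Immediate-early factors (26 of 37) and ATF4 targets (18 of 34) lie furthest to the right, and ribosomal proteins have a median of 0.33 with no gene called.

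Outside the lists, the genes with the largest rise included Txnip, a thioredoxin-binding arrestin (1.95), Pygm, a glycogen phosphorylase (2.36), and the histone genes Hist1h2ac (2.85), Hist2h4 (2.42) and Hist1h1c (2.19). Hist1h1c was at 75.7, 41.2 and 20.04 CPM in CO members and at 41.2, 17.6 and 69.9 CPM in KO members, above the 7.18 to 10.99 CPM of other tumor nuclei in every library. Among the markers of the other tumor states, Pthlh, which encodes a parathyroid-hormone-like peptide, rose by 0.82. Of the mesenchymal identity genes, Twist1 rose by 0.65 and 11 of 12 were not called, beside 3.59% of all genes called higher.

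Among the genes called lower, the 10 with the largest fall were taken from those that were lower in all 6 libraries and had at least 20 UMIs in members. Some genes outside this filter fell further on few UMIs, such as Akap6 with 2 (-3.00, named after its value was seen). Ptprc, the leukocyte receptor phosphatase CD45 (chr1:138062861-138175708), was at 9.66, 9.82 and 6.68 CPM in CO members and at 8.58, 11.01 and 27.95 CPM in KO members. Other tumor nuclei had 26.5, 26.3 and 44.6 CPM in CO and 18.9, 18.0 and 56.1 CPM in KO, giving a log2 fold change of -1.34 ± 0.24 (SE, adjusted p by edgeR 0.000235). The member level was the lower in each library, although KO replicate 3 members exceeded the other tumor nuclei of 4 other libraries. Of 15 further macrophage genes outside the rule 2 fell, Ptprc and Dock2 (-1.13, lower in 5 of 6 libraries), and none rose. Of all tested genes, 1.31% were called lower and 3.59% higher. The summed macrophage list was at 533 to 964 CPM in members and 431 to 961 CPM in other tumor nuclei, against 6984 to 11295 CPM in macrophage-marker nuclei. Itgam was at 0 in members, but also in macrophage-marker nuclei. The other 9 genes chosen by this filter were Masp1 (-1.26), Cerkl (-1.19), Dennd3 (-1.19), Dock10 (-1.11), Ccdc136 (-1.09), Frmd4b (-1.09), Phactr2 (-1.005), Agbl5 (-0.99) and Slc2a13 (-0.99). Each of these 10 genes had between 21 and 36 UMIs in members.

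The called genes differed in length. The rule did not use length directly, but the markers with the most UMIs in members are short genes. Jun spans 3189 bases, Egr1 5162 and Ier2 1522, whereas Atf3 (47744) and Dusp1 (56539) are longer. The length of called genes is therefore not independent of the choice of members. The span from start to end in the GENCODE vM21 annotation had a median of 7.80 kb for genes called higher, 127 kb for genes called lower and 27.1 kb for all tested genes. Of genes under 10 kb, 10.2% were called higher and 0.043% lower, with a median log2 fold change of 0.22. Of genes over 100 kb, 0.814% were called higher and 5.06% lower, with a median of -0.23. Genes of a single exon made up 14.6% of the genes called higher, 1.89% of all tested genes and none of those called lower. Over the alternatives, the median span of genes called higher stayed between 6.39 and 9.36 kb and that of genes called lower between 98.0 and 283 kb. The list medians can be read beside this shift: the 37 immediate-early genes had a median span of 4.98 kb and a median log2 fold change of 1.03, whereas the 42 ribosomal protein genes had a median span of 4.02 kb and a median log2 fold change of 0.33 with no gene called. Whether intronic reads were counted is not given in the sources used here, and the part of gene length in these calls was not tested.

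**Figure D4:**
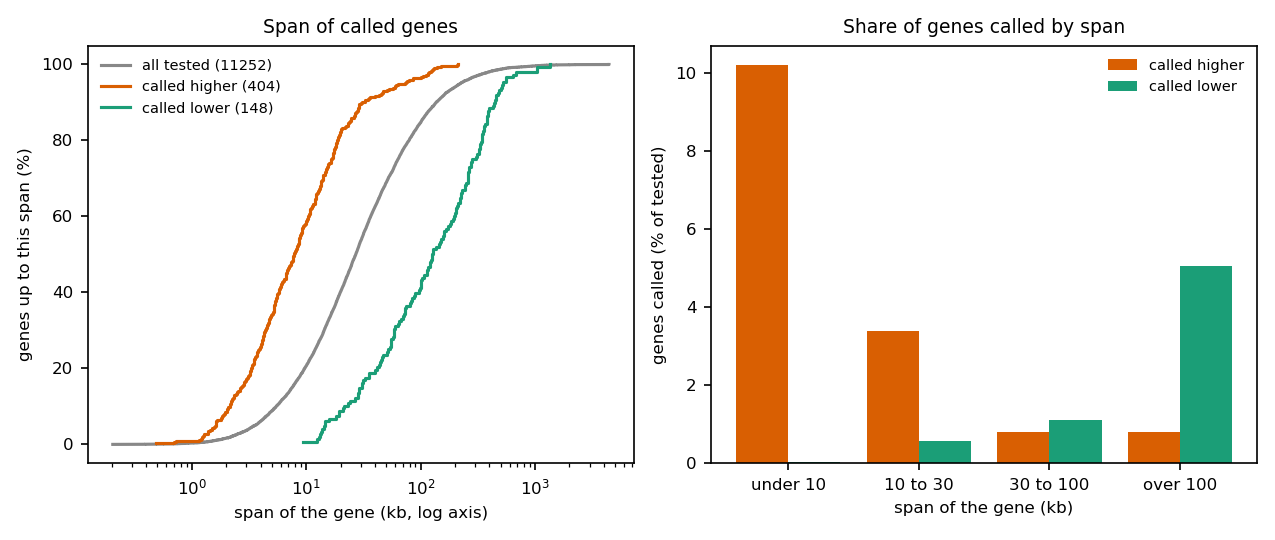
Left, cumulative percentage of genes (y axis) by genomic span in kb (x axis, logarithmic) for all tested genes (grey), genes called higher (orange) and genes called lower (green) in members. Right, percentage of tested genes called higher or lower in 4 classes of span; calls of higher genes fall from 10.2% under 10 kb to 0.814% over 100 kb, and calls of lower genes go the other way.

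Promoters could be matched for 301 of the 404 genes called higher, 109 of the 148 called lower and 9002 of all tested genes. The whole CRE was found in 5.98% of the genes called higher, in 0.917% of those called lower and in 3.13% of all. It was present in Btg2 and Maff among the immediate-early genes, and in Dusp8, Epha2 and Plk2. The CRE core (TGACG, which the whole CRE contains) was found in 40.2%, 16.5% and 31.2% of these 3 sets, and the AP-1 element (TGANTCA) in 8.31%, 11.9% and 5.49%. The TATA box (TATAAA) was found in 10.96%, 7.34% and 4.43%. The C/EBP-ATF element was found in 4 of 14 ATF4 targets called higher (Chac1, Asns, Nupr1 and Aars). Over all promoters it was found in 3.99% of genes called higher, 4.59% of genes called lower and 2.34% of tested genes. The CArG box, the site of serum response factor, was found in 2 of 23 immediate-early genes called higher (Egr2 and Zfp36) and in 1.37% of all tested genes. These matches describe the letters of the window only.

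Members and other tumor nuclei were then compared in 6 measures per library with the exact sign-flip permutation test, two-sided, for which 6 libraries allow a smallest p of 0.0312. The ribosomal protein genes took 0.757% ± 0.340 of the summed counts in members and 0.590% ± 0.302 in other tumor nuclei (SD, n = 6), higher in 6 of 6 libraries (exact p 0.0312, adjusted over 6 measures 0.125). The G2/M genes took 0.457% ± 0.0899 in members and 0.397% ± 0.0457 in others and were higher in 5 of 6 libraries, all but KO replicate 1 (exact p 0.0625, adjusted 0.125). The median mitochondrial share was 6.20% ± 2.79 in members and 7.16% ± 2.34 in others, lower in 5 of 6 libraries (exact p 0.0625, adjusted 0.125). The S phase genes took 0.387% ± 0.04001 and 0.360% ± 0.0223 (exact p 0.156, adjusted 0.234), and the interferon genes 0.211% ± 0.0479 and 0.202% ± 0.0260 (exact p 0.562, adjusted 0.562). None of the 6 measures passed the threshold after adjustment, which a single measure at the smallest possible p could not pass over 6 tests.

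Depth per nucleus moved in opposite ways between libraries. Members had a median of 6099.5, 5685 and 6291 UMIs in CO replicates 1 to 3 and of 3994.5, 6867 and 4217 UMIs in KO replicates 1 to 3. Other tumor nuclei of the same libraries had medians of 5789, 5957 and 5287.5 for CO, and 4309, 7997 and 7862.5 for KO. Members of KO replicate 3 were thus the furthest below their library, and they were also the furthest below it in mitochondrial share (2.09% against 4.76%). Over the 6 libraries the difference was -0.16 on the log2 scale (exact p 0.438, adjusted 0.525), and without KO replicate 3 it was -0.014.

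**Figure D5:**
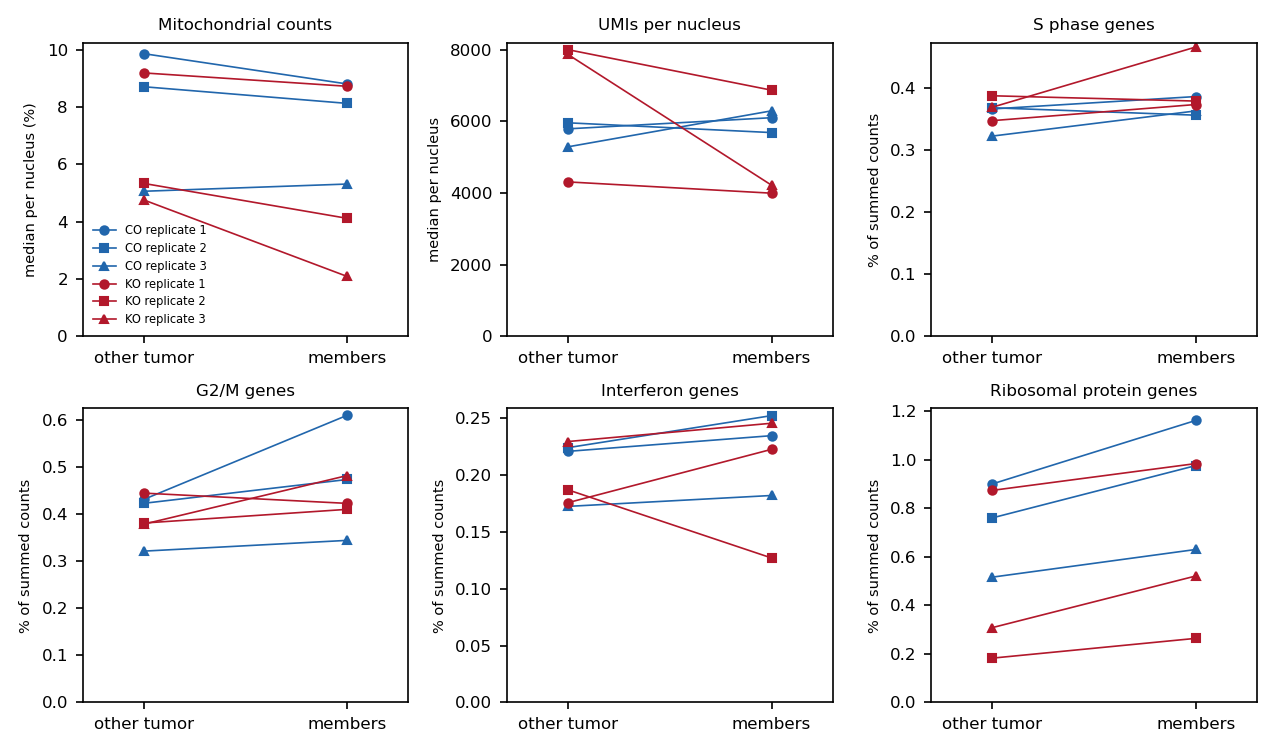
Values of other tumor nuclei (left of each panel) and members (right) for 6 measures, with a line for each library, blue for CO and red for KO. The lines for ribosomal protein genes rise in 6 of 6 libraries, and those for UMIs per nucleus fall in 4 and rise in 2.

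Of the members, 38 also belonged to the top 5% of tumor nuclei by 6 G2/M genes (9.77%) and 27 to the top 5% by 6 interferon genes (6.94%). The G2/M state held 9.52% ± 5.25 of members and 4.72% ± 0.290 of other tumor nuclei (SD, n = 6), higher in 5 of 6 libraries (exact sign-flip p 0.0938, adjusted over 2 states 0.188). Its share of members ranged from 3.03% in CO replicate 3 to 18.3% in CO replicate 1. The interferon state held 6.15% ± 2.94 of members and 4.89% ± 0.154 of others (exact sign-flip p 0.344, adjusted 0.344). Among single genes, 2 of 32 G2/M genes rose, the cyclin Ccna2 (0.71) and the spindle checkpoint target Cdc20 (0.63), and none of 31 S phase genes, beside 3.59% of all genes. The G2/M count was 1 without CO replicate 1 or CO replicate 3 and 4 without KO replicate 1. Of 27 interferon genes 3 rose, Isg15 (0.78), Ifit1 (0.69) and Ifit3 (0.62, in 5 of 6 libraries).

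The remaining comparison was KO against CO, the contrast of the study. The share of tumor nuclei that are members is set by the rule, so the groups were compared in the level of the 8 markers over all tumor nuclei. The mean was 614 ± 177 CPM for the CO libraries against 427 ± 225 for the KO libraries (SD, n = 3), a difference of -187 CPM that was not larger than the spread between libraries (exact permutation p 0.2, where 3 against 3 libraries allow no p under 0.1). The difference moved with single libraries, to -314 CPM without KO replicate 1, -288 CPM without CO replicate 3, -124 CPM without CO replicate 2 and -98.3 CPM without KO replicate 2. KO replicate 1, at 680.0 CPM, lay among the CO libraries (691, 739.8 and 411 CPM).

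Within members, no gene of 7987 was called between KO and CO (0.0%), with 444 genes at an unadjusted edgeR p under 0.05. DESeq2 called 3 genes, all higher in KO. The variation between libraries of a group, fitted without a block, was 27.3%. In data simulated from each library's own profile with added noise, 3.26% of genes with a 2-fold change and 58.3% of those with a 4-fold change were recovered. The noise came on top of the libraries' own differences, which may understate recovery in the real data. Changes were placed only in genes with more UMIs in members, so these shares may overstate recovery for scarcer genes. An absent call does not show equal levels. The smallest adjusted p belonged to Naaladl2 (edgeR adjusted p 0.171), a peptidase-like gene at 41.7, 53.9 and 47.3 CPM in CO members and 174, 190.1 and 137 CPM in KO members, without overlap of the groups. Groups without overlap were seen for 11.2% of all tested genes. The immediate-early list had a median log2 fold change of 0.01 over 32 tested genes, with 5 genes that did not overlap, and the list of ATF4 targets one of -0.47 over 31 genes, of which 7 did not overlap. The ribosomal protein list had a median of -0.62 over 39 genes and no gene without overlap. Without KO replicate 1, 318 genes were called, 254 of them lower in KO.

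Whether the difference between members and other tumor nuclei itself depended on the group was tested as an interaction. Of 11866 genes 2 were called (0.0169%), 1 in each direction (0.00843%). Ifih1, which encodes the RNA sensor MDA5 (chr2:62595798-62646255), was higher in members than in other tumor nuclei of the CO libraries (255, 253 and 189 CPM against 176, 193 and 93.7 CPM). In the KO libraries it was lower in members (146, 217 and 167 CPM against 165, 307 and 305 CPM), an interaction of -1.08 on the log2 scale (SE 0.19, edgeR adjusted p 0.0200). Pcdh9, a protocadherin adhesion gene (chr14:93013410-93890679), was at 14.6, 33.3 and 39.8 CPM in CO members and 23.8, 42.3 and 260.3 CPM in the other tumor nuclei of CO. In KO it was at 172, 86.7 and 100.8 CPM in members and 143, 75.9 and 72.4 CPM in others, an interaction of 1.78 (SE 0.33, edgeR adjusted p 0.0380). CO replicate 3 had the highest Pcdh9 level of all in other tumor nuclei, and its members had 12 UMIs. DESeq2 called neither gene. Without CO replicate 3 neither was called, and the interaction was 0.76 for Pcdh9 and -0.97 for Ifih1.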

How the data were processed

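Nuclei of 6 tumors were profiled by droplet snRNA-seq. Per the labels, the authors aligned reads with Cell Ranger 3.0.2 to GRCm38, whereas the file headers name 3.1.0. The deposited values are whole-number UMI counts per gene and nucleus, 22623 genes and 18865 barcodes, with 13252572 to 22057084 UMIs per library. Some samples had additional washes, and which ones is not given in the sources used here. The study's methods name a correction for free RNA, and whether the deposited counts were made before or after it is not given in the sources used here. The study calls the 3 libraries of a group biological replicates. For KO against CO, p-values measure the spread between libraries of a group. With library as block or pair, as for members against other tumor nuclei and the interaction, they measure the spread of differences within libraries.

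Counts were summed per library and class and tested with edgeR 4.0.16 (quasi-likelihood, TMM scaling, low-count filter, library as block for members against other tumor nuclei, Benjamini-Hochberg adjustment). DESeq2 1.42.0 was an alternative. Marker levels are unscaled CPM, and levels of tested genes are TMM-scaled CPM. A call needed a log2 fold change of at least 0.58 in size and an adjusted p of at most 0.05. Per-library measures were compared with exact sign-flip or permutation tests in scipy 1.17.1, adjusted over their family. The fits were tested on data simulated from each library's own profile with added noise. There, 89.9% of genes with a 2-fold and 100% of those with a 4-fold change between members and other tumor nuclei were recovered. Changes were placed only in genes with more UMIs in members, so recovery of scarcer genes was not measured. Scrublet called 11 doublets (0.0611%), too few to be used, and removal of the 521 highest scores was an alternative instead.

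The members, markers and gene lists were chosen with earlier results of these data known. Genes named are the markers, the 15 genes with the largest rise and the 10 with the largest fall among called genes with 1 sign in all 6 libraries and at least 20 member UMIs, up to 4 called genes per list, a set of stress genes whatever their values, and called genes of the KO comparisons. Other called list members named with a value (Myc, Atf4, Asns, Hspa9) and the histone genes as a group were chosen after their values were seen. Of 558 list entries 551 were found. Promoters and their motifs came from RefSeq (GRCm38.p6), and gene positions from GENCODE vM21. Some genes that meet this rule are not reported here.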

Additional observations from a re-analysis of the deposited data

Results flagged for a closer look

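For 2 genes the difference between members and other tumor nuclei differed between KO and CO in the interaction test over all genes. The interaction of Pcdh9 was 1.78 on the log2 scale (SE 0.33, edgeR adjusted p 0.0380), with members lower than other tumor nuclei in 3 of 3 CO libraries and higher in 3 of 3 KO libraries. The interaction of Ifih1 was -1.08 (SE 0.19, edgeR adjusted p 0.0200), with members higher in 3 of 3 CO libraries and lower in 3 of 3 KO libraries. Without CO replicate 3, Pcdh9 fell to 0.76 and Ifih1 was -0.97, and neither passed. With the replicate number as a block these values were 1.86 and -1.19, and neither passed.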

How the results depend on the processing

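Members against other tumor nuclei gave 552 called genes, and 301 when members were chosen after thinning, 252 with tumor genes at 1% or more, 204 with at least 500 genes and under 5% mitochondrial counts, and 44 without the library block. Leaving out a library gave 381 to 591. Without the filter on low counts the calls split into 340 higher and 340 lower, against 404 and 148. The UMI difference turned from -0.16 to 0.113 on the log2 scale with the stricter filter on nuclei, as did Cdc20, to -0.28. The ribosomal share difference, 0.166 percentage points, was 0.112 and no longer past the unadjusted threshold with that filter, and 0.147 to 0.183 when a library was left out, where 5 libraries allow no p under 0.0625. Unadjusted p-values passed for the S phase share after thinning (0.0405 points) and with the stricter filter (0.0915), for the G2/M share with the top 10% (0.0548) and for the interferon share with a score without Jun and Egr1 (0.0426), an alternative chosen after seeing the data. KO against CO in members gave 0 calls, 3 with DESeq2, 19 without the filter on low counts, and 0 to 318 when a library was left out (318 without KO replicate 1, 1 without CO replicate 2). The interaction gave 2 calls, 0 with DESeq2, 13 without the filter, 1 with the top 10%, 0 after thinning, 1 with 0 macrophage counts, 6 with the stricter filter and 8 with the score without Jun and Egr1. Leaving out a library gave 0 to 21 (0 without CO replicate 3, 7 without CO replicate 2, 21 without KO replicate 1, 6 without KO replicate 3). With a library left out, the marker level difference was -314 to -98.3 CPM, and -115 CPM with the stricter filter. KO replicate 3 moved the UMI difference to -0.014, the mitochondrial one to -0.614 points and the S phase one to 0.0132 points. CO replicate 1 moved the G2/M difference to 0.0369 points, and the interferon difference was 0.00155 without KO replicate 1, 0.00529 without CO replicate 2 and 0.0229 without KO replicate 2. The cause of these moves was not tested. Of 1256 values of named genes under the alternatives, 1065 kept direction and side of the threshold, 186 lost the call, 4 gained it and 1 reversed.

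Replicate numbers are shared by CO and KO, but deviations of same-numbered libraries correlated at 0.36, -0.16 and 0.02 over genes, so the numbers were not taken as pairing. With the replicate block, KO against CO in members gave 3 calls (Naaladl2, Lingo2 and Pcdh9), and the interaction gave 0. For the marker level over all tumor nuclei, -187 CPM, the block cannot change the difference of means. The exact p was 0.25, the smallest that 3 pairs of libraries allow.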

Other observations

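Several histone genes were among the genes called higher in members, which was noticed after the values were seen, so they form no fixed list and were not tested as one. The study lists Hist1h2ac, Hist2h3c1 and Hist1h2bc with Atf3 and Ppp1r15a as top markers of its activated/cycling cluster. The rise of these histone genes is therefore not independent of the choice of members. Of 23 tested histone genes 14 were called higher, beside 3.59% of all genes, 8 were not called and 1 was called lower (H2afy2, log2 fold change -1.12), with a median of 1.14, and 12 were higher in all 6 libraries. They included the replacement histone H3f3b, which rose from a mean of 538 to 1341 CPM, the linker histone H1f0 (1.27) and the canonical Hist1h4i (1.71), while the variants H2afz (0.54) and H3f3a (0.27) stayed under the fold threshold. Many of the tested histone genes have a single exon, and of all 213 tested single-exon genes 59 were called higher. The part of gene structure in these calls was not tested.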
